A study of Mus musculus with 8 samples.

Results

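The 9 genes described here are the peroxisome proliferator-activated receptors (PPARs) of the mouse, *Ppara*, *Ppard* and *Pparg*, their DNA-binding partner *Rxra*, and 5 genes of lipid storage and fuel use that PPARs are known to switch on, *Plin2*, *Pdk4*, *Cpt1a*, *Angptl4* and *Acadl*. They were chosen by name, for what is known of the pathway, with earlier results of these data known. All 9 were found among 53819 gene rows. The question was whether this pathway moved in macrophages exposed to bilirubin, a heme breakdown product that has been proposed as a PPARα ligand. The RNA came from bone marrow-derived macrophages (BMDM) of 4 female BALB/cJ mice, 8 weeks old, grown for 5 days with the growth factor M-CSF at 25 ng/mL. From each mouse, numbered 1 to 4, one culture then received 2.5 µM bilirubin and the other the vehicle DMSO for 48 h, which gave 8 libraries of poly(A)-selected RNA. All groups shared the M-CSF treatment, and no genetic change is given for the mice.

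PPARs are nuclear receptors that sense fatty acids and related lipids. Each pairs with a retinoid X receptor such as RXRα and binds a direct repeat of the half-site AGGTCA with a single base between the copies, where ligand exchanges corepressors for coactivators. PPARα is best known as the driver of fatty acid oxidation in liver, PPARγ as the master regulator of adipocytes that also shapes lipid handling in macrophages, and PPARδ as the broadly expressed member of the family, while *Plin2*, *Cpt1a*, *Pdk4* and *Angptl4* are among the targets most often used to read out their activity.

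The half-site repeat was looked for in the genome around the start of each gene, to show the kind of sequence through which these receptors act. The pattern searched was AGGTCA, any base and AGGTCA again, 13 bases with 12 fixed letters, on both strands within 5000 bases of the start site of each gene's leading transcript and with up to 2 mismatches. The examples below are from 3 target genes described further on, *Plin2*, *Angptl4* and *Cpt1a*, and the last, near *Ppard*, is the closest match near any of the 9 genes. The sequences are from the GRCm39 reference, which is of another strain than BALB/cJ, and the capitals mark the matched 13 bases, read 5′ to 3′ on the strand that carries the match.
Plin2, 56 bases before the start site, chr4:86588509-86588521, plus strand: tctgacttAGGTCAGGGGTCCtgaaagct
Plin2, 1775 bases before the start site, chr4:86590228-86590240, minus strand: ccttttgtAGGTGAAAGGGCAaagaaaga
Angptl4, 2240 bases after the start site in intron 3, chr17:33998271-33998283, plus strand: gggaaagtAGGAGAAAGGTCActggggga
Cpt1a, 889 bases before the start site, chr19:3372376-3372388, minus strand: agagtcgcAGCTCTGAGGTCAagcacgcc
Ppard, 2778 bases before the start site, chr17:28448890-28448902, plus strand: gtgtgtagAGGTCAGAGGACAactttcag

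The *Angptl4* site lies inside that gene and the *Cpt1a* site inside the bounds of *Cpt1a* and of *Gm58963*, while no annotated gene covers the other 3. The *Ppard* site matched 11 of the 12 fixed letters and the other sites 10. None of the 9 genes had an exact match in this window, 1 (*Ppard*) had a site with at most 1 mismatch, and all 9 had one with at most 2. Such matches are common. Among 11806 tested protein-coding genes, 2.26% had an exact match, 20.54% a site with at most 1 mismatch and 77.52% one with at most 2. The matches are letters in a window, and no binding was measured here.

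Between 34142781 and 47071714 counts fell on genes in each library, at which depth 3 counts are 0.0631 to 0.0863 CPM (counts scaled to a common library size). Estimated counts were TMM-scaled, and each bilirubin culture was compared with the vehicle culture of its mouse by the quasi-likelihood test of edgeR. Benjamini-Hochberg adjustment covered the 13722 genes with enough counts, and a gene was called when its adjusted p was under 0.05. Of the tested genes, 7.53% were called, 616 of them higher with bilirubin (4.49%) and 417 lower (3.04%). Higher calls were 59.63% of all calls, against 48.66% with libraries scaled by their totals alone, a scaling that moved the median of all genes by -0.026 on the log2 scale. Macrophage markers were expressed in all libraries (8 of 8). Adipocyte markers were under 1 CPM in every library (6 of 6), with *Cidec* and *Cidea* at 0.

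Of the 9 genes, 7 had enough counts to be tested, and none of the 7 was called higher with bilirubin. *Plin2*, which coats lipid droplets, and *Rxra* were called lower, 2 of 7 (28.6%) against a background of 3.04% of all tested genes called lower. All 7 fold changes were below 0, as were 50.7% of all tested genes, with that of *Acadl* close to 0. The median of the 7 was -0.20 on the log2 scale, where the median over all tested genes was -0.0018. In all 4 mice, 5 of the 7 were lower in the bilirubin culture, as were 13.9% of all tested genes. An unadjusted p under 0.05 was reached by 4 of the 7 (*Plin2*, *Rxra*, *Cpt1a* and *Angptl4*) and by 20.8% of all tested genes. None of the 7 separated the CPM of the groups without overlap, which 10.6% of all tested genes did in either direction. Without the pairing by mouse in the model, 0 of the 7 were called. In bulk RNA, fewer cells expressing a gene and less RNA per cell cannot be told apart.

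**Figure D1:**
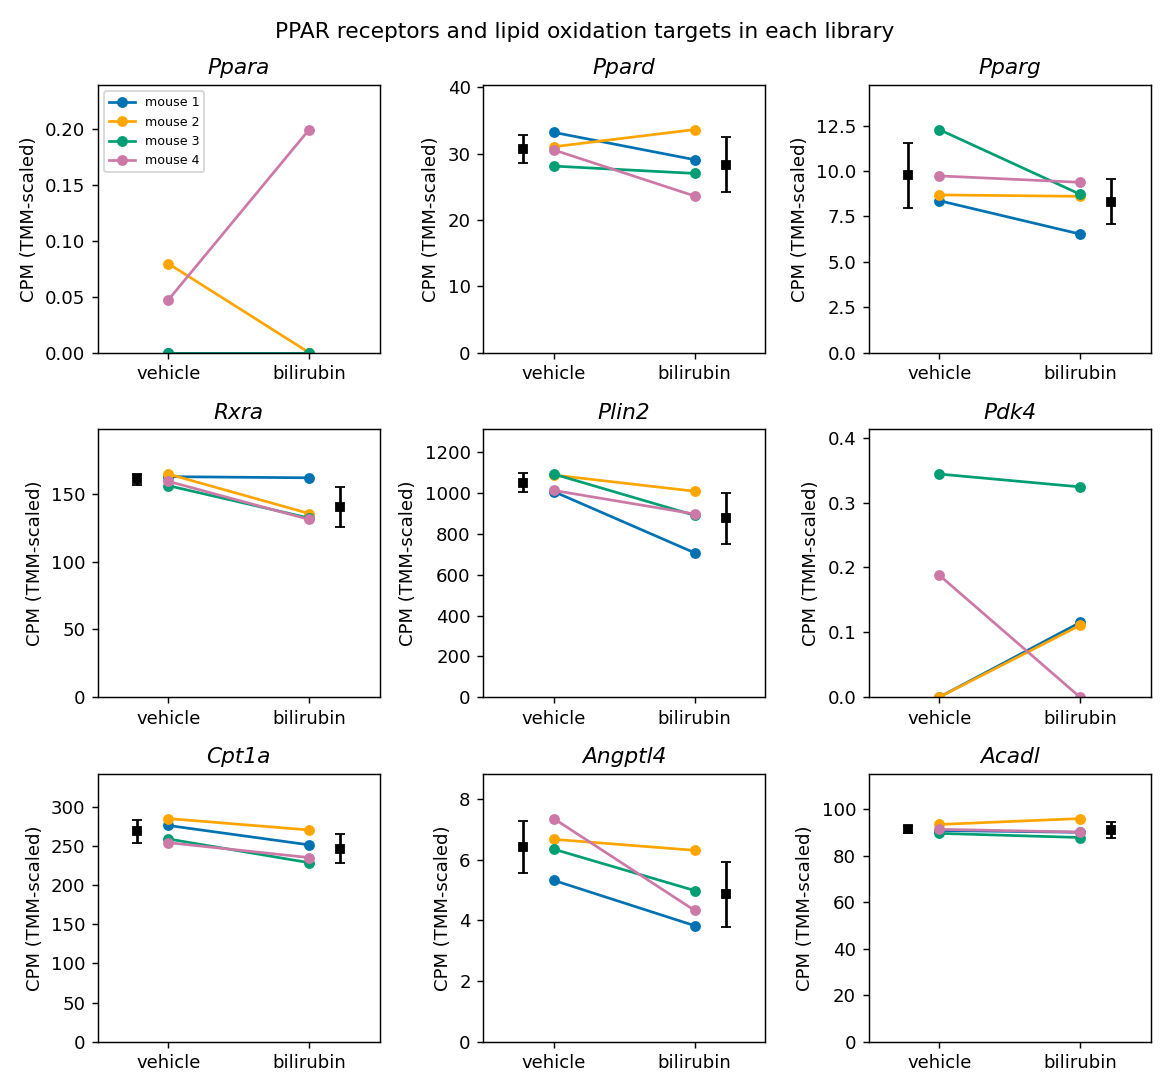
Level in CPM (TMM-scaled, linear axis from 0) of the 9 genes in each library, with a line joining the vehicle and the bilirubin culture of each mouse and squares showing the mean and SD of 4 libraries (none drawn for Ppara and Pdk4, which were too low to be tested). All 4 lines fall for Plin2, Rxra, Cpt1a, Angptl4 and Pparg, that of mouse 1 hardly at all for Rxra, and the lines of Acadl are close to flat.

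The receptors were present at very different levels. *Ppara* (ENSMUSG00000022383, chromosome 15, 85618656 to 85687067), the receptor that bilirubin has been proposed to bind, had 0, 3, 0 and 2 counts in the vehicle cultures of mice 1 to 4. The bilirubin cultures had 0, 0, 0 and 8. Only the bilirubin culture of mouse 4 was above 3 counts, so *Ppara* was at or near the limit of detection in these macrophages and had too few counts to be tested. Fitted without a filter on low counts, its log2 fold change was -0.12, at an adjusted p of 0.997 in edgeR's quasi-likelihood test.

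*Ppard* (ENSMUSG00000002250, chromosome 17, 28451674 to 28520448) was the most abundant PPAR per transcript length. It stood at 33.2, 31.0, 28.1 and 30.6 CPM in the vehicle cultures and at 29.1, 33.6, 27.0 and 23.6 CPM in the bilirubin cultures. The groups overlapped, with a higher value in the bilirubin culture of mouse 2 and lower values in those of the other 3 mice. The log2 fold change was -0.13 (95% interval -0.30 to 0.05), and it was not called (adjusted p = 0.417, edgeR's quasi-likelihood test). It was -0.21 without mouse 2 and -0.04 without mouse 4. The bounds of *Gm65514* overlap those of *Ppard* on the same strand. Whether the transcripts of these genes share sequence, and so reads, was not tested.

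*Pparg* (ENSMUSG00000000440, chromosome 6, 115337675 to 115468268) was lower than *Ppard* in every library on either scale used here. It was at 8.37, 8.69, 12.3 and 9.74 CPM in the vehicle cultures and at 6.53, 8.61, 8.73 and 9.38 CPM with bilirubin. Every bilirubin culture was below the vehicle culture of its own mouse, by very little in mice 2 and 4, and the groups overlapped. The log2 fold change of -0.23 (95% interval -0.47 to 0.0035) was not called (adjusted p = 0.248, edgeR's quasi-likelihood test), and it was -0.14 without mouse 3. Per transcript length, as TPM (abundance scaled for length and library), the ratio of *Ppard* to *Pparg* was 2.07 ± 0.413 (SD, n = 4) in vehicle and 2.29 ± 0.631 in bilirubin cultures.

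The full-length transcripts of *Pparg* encode a protein of 475 codons, the PPARγ1 form, or of 505 codons, the longer form known from adipocytes. In 7 of the 8 libraries the long form was at 0. In the vehicle culture of mouse 1 it took 30.6% of the gene's TPM. Among transcripts of the short form, ENSMUST00000171644 held most of the TPM in every library, from 57.5% to 100%. ENSMUST00000203732 took 42.5% and 40.9% in the bilirubin cultures of mice 2 and 4, 6.57% in the vehicle culture of mouse 4 and 0 in the other 5 libraries. The gene had 227 to 536 counts per library, and these shares rest on how Salmon divided them between transcripts that share most of their sequence. The accuracy of the shares was not tested.

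*Rxra* (ENSMUSG00000015846, chromosome 2, 27566452 to 27653330), a partner with which PPARs bind DNA, stood at 163, 165, 156 and 159 CPM in the vehicle cultures. In the bilirubin cultures it was 162, 136, 132 and 131 CPM. Mice 2, 3 and 4 had clearly lower values with bilirubin, whereas mouse 1 differed by -0.01 on the log2 scale and lay inside the vehicle range. *Rxra* fell by 13.1% (95% interval -19.8% to -5.79%), a log2 fold change of -0.20 ± 0.05 (SE), at an adjusted p of 0.0499 in edgeR's quasi-likelihood test. This was just inside the threshold. Without mouse 1 the log2 fold change was -0.27 (adjusted p = 0.000244), and the call was lost without mouse 2, 3 or 4 (0.205, 0.249 and 0.246) without the pairing (0.127), with a filter on a mean of 10 counts (0.0521) and with an offset for transcript length (0.132).

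Its relatives *Rxrb* and *Rxrg* were treated as members of the wider pathway. *Rxrg* was at 0 in every library. *Rxrb* was at 21.9 ± 1.84 TPM (SD, n = 4) in vehicle and 20.6 ± 3.00 TPM in bilirubin cultures, with a log2 fold change of -0.08 that was not called (adjusted p = 0.520, edgeR's quasi-likelihood test). *Rxra* made up 70.9% ± 1.76 (SD, n = 4) of the RXR transcripts per length in vehicle and 69.0% ± 0.937 in bilirubin cultures, the larger share in both groups. *Gm74738* overlaps *Rxra* on the same strand.

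*Plin2* (ENSMUSG00000028494, chromosome 4, 86565912 to 86588459) encodes perilipin 2, the main lipid droplet coat protein of cells other than adipocytes and a classic PPAR target. It was by far the most abundant of the 9 genes, at 1007, 1088, 1093 and 1013 CPM in the vehicle cultures. The bilirubin cultures had 707, 1009, 891 and 897 CPM. Every bilirubin culture was below the vehicle culture of the same mouse, most of all in mouse 1 and least in mouse 2, whose bilirubin culture just reached the vehicle range. *Plin2* fell by 17.2% (95% interval -24.8% to -8.79%), a log2 fold change of -0.27 ± 0.06 (SE), at an adjusted p of 0.0321 in edgeR's quasi-likelihood test. The fold change was -0.20 without mouse 1 and -0.33 without mouse 2, both still called. The call was lost without mouse 3 (adjusted p = 0.189), without mouse 4 (0.0934), without the pairing (0.135) and with an offset for transcript length (0.0590).

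Per transcript length, *Plin2* was at 1239 ± 11.9 TPM (SD, n = 4) in the vehicle cultures, with a range of 1224 to 1252. The bilirubin cultures ranged from 871 to 1121 TPM. On this scale, which has no TMM scaling, the groups did not overlap, which held for 9.87% of all tested genes in either direction. In TMM-scaled CPM the groups overlapped for *Plin2*. Transcript ENSMUST00000000466, of 425 codons, carried 68.0% of the gene's TPM in vehicle and 68.4% in bilirubin cultures.

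*Cpt1a* (ENSMUSG00000024900, chromosome 19, 3371853 to 3437996) encodes the carnitine palmitoyltransferase of the outer mitochondrial membrane, the rate-limiting step for the entry of long-chain fatty acids into oxidation. It stood at 276, 285, 259 and 254 CPM in the vehicle cultures and at 251, 270, 229 and 235 CPM with bilirubin. All 4 bilirubin cultures were below their own vehicle cultures, by a small amount, while mouse to mouse differences of similar size made the groups overlap. The log2 fold change was -0.13 (95% interval -0.20 to -0.05). It was not called (adjusted p = 0.0593, edgeR's quasi-likelihood test), but it passed the threshold in 5 of 12 alternative analyses, among them DESeq2 (0.0493) and limma-voom (0.0450).

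*Angptl4* (ENSMUSG00000002289, chromosome 17, 33992724 to 34000804) encodes a secreted inhibitor of lipoprotein lipase and is among the most responsive PPAR targets in many cells. Its level was low, at 5.32, 6.68, 6.35 and 7.36 CPM in the vehicle cultures. With bilirubin it was 3.83, 6.31, 4.99 and 4.33 CPM. Values were lower with bilirubin in all 4 mice, least in mouse 2, and the groups overlapped through that mouse. The log2 fold change, -0.42 (95% interval -0.71 to -0.12), was the furthest from 0 of the 7, and it was not called (adjusted p = 0.105, edgeR's quasi-likelihood test). Only the analysis without a filter on low counts, of the 12 alternatives, passed the threshold (0.0206). Most of its TPM was assigned to ENSMUST00000173869, a transcript annotated as a target of nonsense-mediated decay (71.9% in vehicle, 73.5% in bilirubin cultures), and 28.1% and 24.7% to ENSMUST00000002360, which encodes the full protein of 410 codons.

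*Pdk4* (ENSMUSG00000019577, chromosome 6, 5483097 to 5496339), a kinase that turns off pyruvate dehydrogenase and so favours fat over glucose as fuel, was close to absent. It had 0, 0, 15 and 8 counts in the vehicle cultures and 4, 4, 13 and 0 in the bilirubin cultures. Neither group was higher throughout, and the gene was too low to be tested. Fitted without the filter, its log2 fold change was 0.43, at an adjusted p of 0.928 in edgeR's quasi-likelihood test.

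*Acadl* (ENSMUSG00000026003, chromosome 1, 66868267 to 66902633), the long-chain acyl-CoA dehydrogenase of mitochondrial beta-oxidation, was at 90.9, 93.5, 89.6 and 91.4 CPM in the vehicle cultures. It was at 90.1, 96.0, 87.8 and 90.2 CPM with bilirubin. The cultures of each mouse were nearly equal. The log2 fold change was -0.01 (95% interval -0.08 to 0.07, or -5.62% to 5.16% of the vehicle level), and its sign turned in 2 of the 12 alternatives. *Gm15793* overlaps *Acadl* on the same strand.

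**Figure D2:**
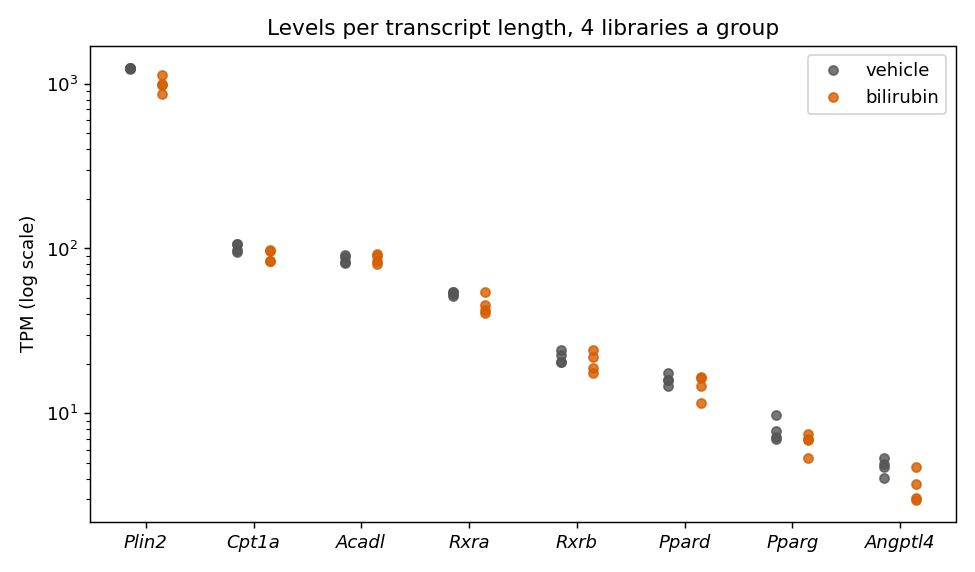
Level per transcript length (TPM, log scale) of the 7 tested genes and of Rxrb in each of the 4 libraries of both groups. Plin2 stands far above the rest, at 1239 TPM on average in vehicle cultures, and Pparg and Angptl4 are lowest, while Ppara and Pdk4, with libraries at 0, cannot be drawn on a log scale.

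Ordered by TPM in the vehicle cultures, *Plin2* was followed by *Cpt1a* at 102 ± 5.73 TPM (SD, n = 4), *Acadl* at 86.2 ± 4.51, *Rxra* at 53.1 ± 1.34, *Ppard* at 16.0 ± 1.21, *Pparg* at 7.91 ± 1.26 and *Angptl4* at 4.77 ± 0.566. *Pdk4* and *Ppara* came last, with means of 0.0622 and 0.0191 TPM, and were the only neighbours whose ranges overlapped. In the bilirubin cultures *Cpt1a* (83.5 to 97.5 TPM) and *Acadl* (81.0 to 92.9 TPM) overlapped as well.

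The mice did not contribute alike. In mouse 2, 6 of the 7 tested genes had their least negative or a positive difference between bilirubin and vehicle, *Rxra* being the exception, and the median difference of the 7 was -0.08 on the log2 scale. The median was -0.19 in mouse 1, -0.24 in mouse 3 and -0.17 in mouse 4. Over all tested genes the median difference was 0.00021, 0.0011, -0.0011 and 0.0018 in mice 1 to 4. The number of the 7 genes called lower was 3 without mouse 1 (with *Cpt1a*), 1 (*Plin2*) without mouse 2 and 0 without mouse 3 or mouse 4. Lower calls over all tested genes moved the same way. They numbered 417 with all 4 mice, and leaving out mice 1 to 4 in turn gave 884, 215, 112 and 139.

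**Figure D3:**
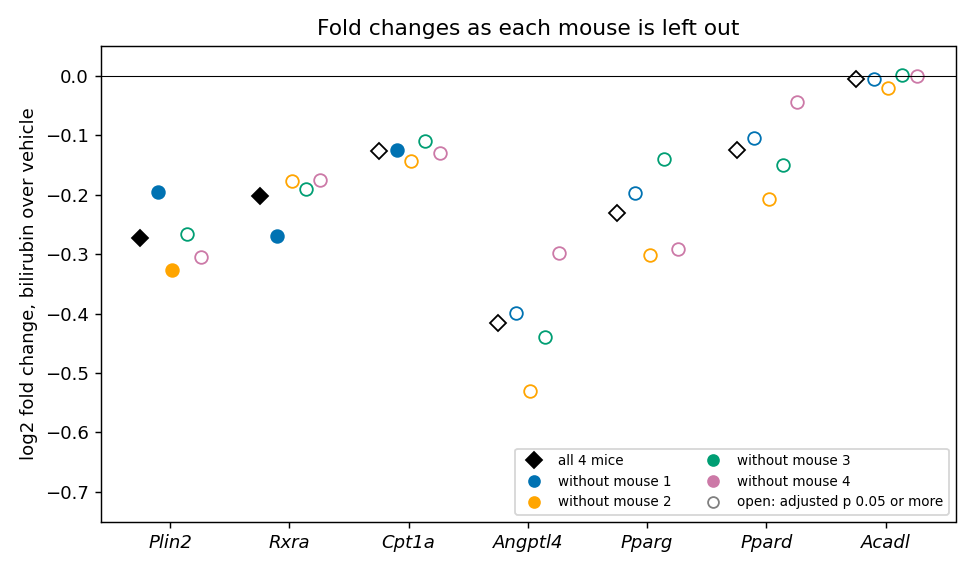
Log2 fold change (bilirubin over vehicle, edgeR) of the 7 tested genes with all 4 mice (diamonds) and with each mouse left out (circles), filled where the adjusted p was under 0.05. Filled symbols are seen for Plin2, Rxra and, without mouse 1, Cpt1a, while Acadl stays near 0 throughout.

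The wider pathway was read from a list of 96 other genes of PPAR action and fatty acid oxidation, of which 85 were tested. Its median log2 fold change was 0.00, with 43 genes above 0 and 42 below, and 6 were called (7.06%, against the background of 7.53%), 4 higher and 2 lower. The groups did not overlap in CPM for 8 of the 85, beside 10.6% of all tested genes.

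**Figure D4:**
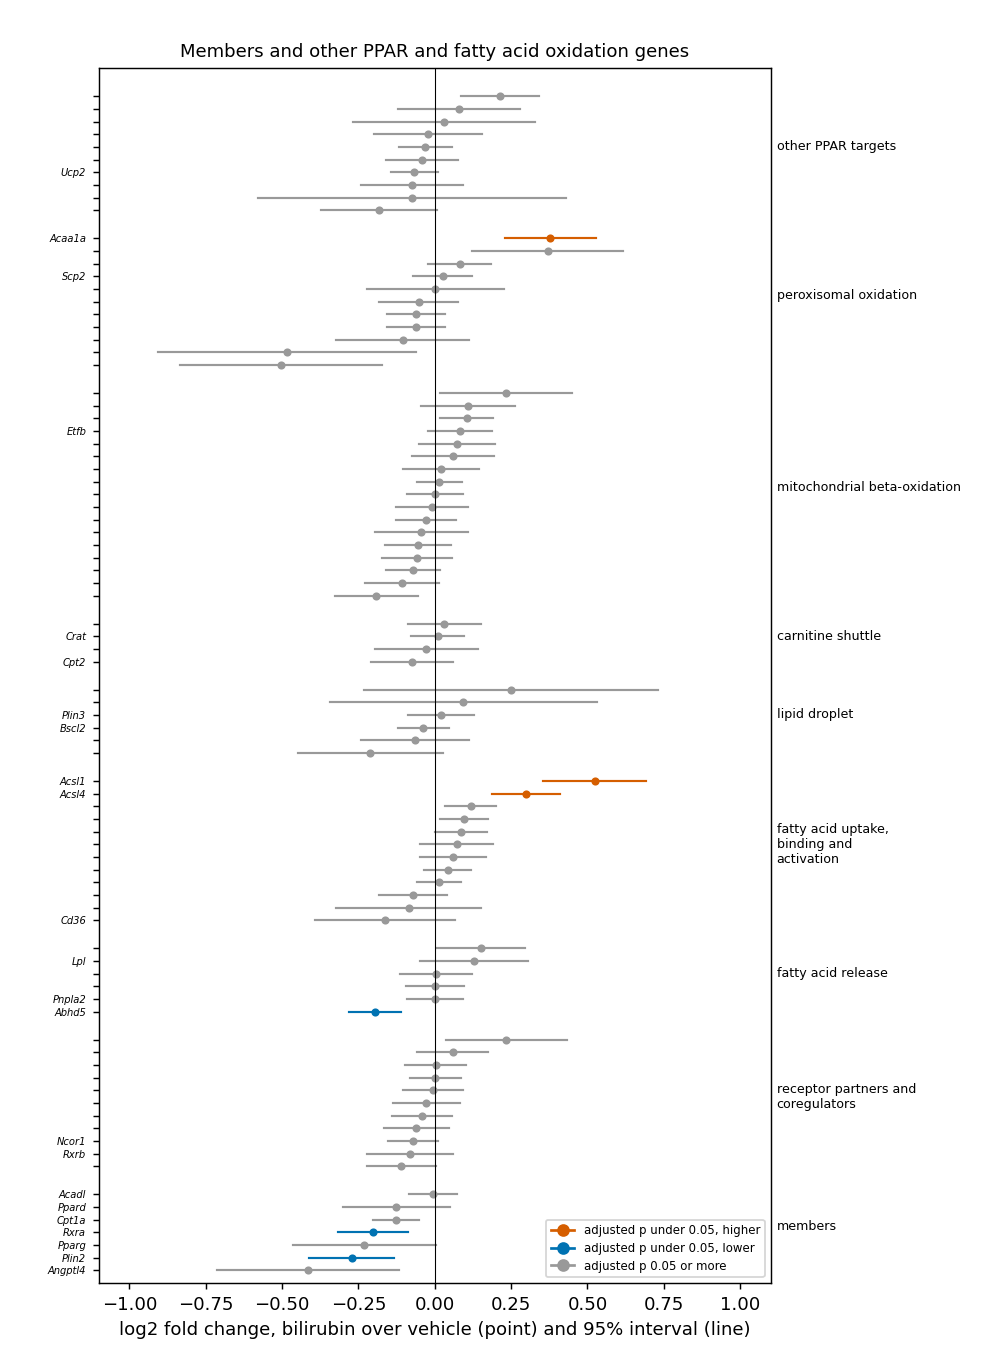
Log2 fold change with its 95% interval (edgeR) for 84 genes, the 7 tested members and the wider pathway grouped by role, coloured by whether the adjusted p was under 0.05 and with symbols for the genes whose fold change the text prints. Not drawn are 5 tested genes with a mean log2 CPM under 0 and 3 others, and most intervals cross 0 in each role of the wider pathway.

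Of the receptor partners and coregulators, 12 of 14 were tested and 1 was called (8.33%, against 7.53% of all tested genes). The corepressor *Ncor1*, the most abundant gene of this role by TPM, had a log2 fold change of -0.07 and was not called (adjusted p = 0.304, edgeR's quasi-likelihood test). The coactivator *Ppargc1a* had too few counts to be tested.

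Genes of fatty acid uptake, binding and activation held the called rise furthest from 0 of the list. *Acsl1*, an acyl-CoA synthetase that activates long-chain fatty acids and a known PPAR target, went from 71.5, 74.1, 73.1 and 67.7 CPM in vehicle to 91.8, 92.2, 117 and 113 CPM in bilirubin cultures. All bilirubin cultures were above all vehicle cultures. The log2 fold change was 0.52 (SE 0.07, adjusted p = 0.00363, edgeR's quasi-likelihood test), and it was called in all 12 alternatives. *Acsl4*, a synthetase that prefers arachidonic acid, rose by 0.30 on the log2 scale (adjusted p = 0.00717) and was not called without mouse 3 (0.0830) or mouse 4 (0.0616). The scavenger receptor *Cd36*, a PPARγ target and the most abundant gene of this role, had vehicle values of 1309 to 1640.3 CPM and bilirubin values of 947 to 1830.3 CPM, higher with bilirubin in 2 mice and lower in 2, and was not called (log2 fold change -0.16, adjusted p = 0.423). Its fold change was -0.04 without mouse 1 and -0.27 without mouse 2. Of the 12 alternatives, only edgeR's quasi-likelihood test without the filter on low counts called it (adjusted p = 0.00586), at a fold change of -0.17.

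Among genes of fatty acid release, *Abhd5*, the activator of adipose triglyceride lipase, stood at 70.9, 76.4, 69.7 and 69.3 CPM in vehicle and 61.9, 66.2, 58.6 and 63.1 CPM in bilirubin cultures. The groups did not overlap, and the gene fell by 0.20 on the log2 scale (SE 0.04, adjusted p = 0.0156, edgeR's quasi-likelihood test). It was not called without mouse 2 (0.0779), 3 (0.125) or 4 (0.0578), without the pairing (0.05) or with the length offset (0.0664). The lipase itself, *Pnpla2*, had a log2 fold change of -0.00051 (adjusted p = 0.996). Lipoprotein lipase, *Lpl*, which ANGPTL4 inhibits, was not called at 0.13 (adjusted p = 0.416). It was called without mouse 1 (0.22, adjusted p = 0.0227) and without the filter on low counts (adjusted p = 0.0212), and its fold change was 0.07 without mouse 2 and 0.05 without mouse 4.

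No other lipid droplet gene was called (0 of 6 tested), so *Plin2* was the only droplet coat gene past the threshold. *Bscl2*, which encodes the droplet assembly protein seipin and was the most abundant of this role by TPM, had a log2 fold change of -0.04 (95% interval -0.12 to 0.05). *Plin3*, the other perilipin with ample counts, had a log2 fold change of 0.02 (95% interval -0.09 to 0.13), while *Plin4* and *Plin5* were too low to be tested. The difference between *Plin2* and *Plin3* was not tested.

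For mitochondrial oxidation, only the RNA of its genes was measured. All 17 listed genes of mitochondrial beta-oxidation were tested and none was called by edgeR, although 3 had an unadjusted p under 0.05. Their fold changes ran from -0.19 to 0.23 with a median of 0.00. *Etfb*, a subunit of the flavoprotein that takes electrons from the acyl-CoA dehydrogenases and the most abundant of the 17, was at 0.08 (95% interval -0.02 to 0.19). The carnitine shuttle had 0 of 6 called, with *Cpt2* at -0.07 (95% interval -0.21 to 0.06) and *Crat*, the most abundant of the 6, at 0.01 (-0.08 to 0.10), beside the -0.13 of *Cpt1a*.

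Of 13 genes of peroxisomal oxidation, 2 were called, both higher, where 4.49% of all tested genes were called higher. The median fold change of the 13 was -0.00026 on the log2 scale, with 7 genes below 0 and 6 above. *Acaa1a*, a peroxisomal thiolase, stood at 85.5, 91.9, 91.7 and 89.9 CPM in vehicle and 126, 99.7, 123 and 119 CPM in bilirubin cultures, which did not overlap. It rose by 0.38 on the log2 scale (SE 0.07, adjusted p = 0.0102, edgeR's quasi-likelihood test), and was not called without mouse 3 (0.0991) or mouse 4 (0.0695). It shares near-identical sequence with *Acaa1b* and overlaps *Myd88* on the other strand, so its value is uncertain. *Scp2*, a sterol carrier and thiolase and the most abundant of the 13, was at 0.03 (95% interval -0.07 to 0.12).

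Of 18 further PPAR targets, 11 were tested and 0 called by edgeR, with 1 at an unadjusted p under 0.05. *Fgf21*, *Vnn1*, *Cyp4a10*, *Cyp4a14* and *Aqp7*, which in liver or fat respond strongly to PPAR ligands, were at 0 in every library. *Ucp2*, the most abundant, was at 1259 ± 32.2 TPM (SD, n = 4) in vehicle and 1166 ± 28.2 TPM in bilirubin cultures, with a log2 fold change of -0.07 that was not called (adjusted p = 0.321, edgeR's quasi-likelihood test).

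Markers of cell types were compared in the same way. Of 6 osteoclast markers, 3 (*Ctsk*, *Acp5* and *Dcstamp*) were called higher with bilirubin, where 4.49% of all tested genes were. *Ocstamp* and *Atp6v0d2*, with log2 fold changes of -0.27 and -0.11, were not called, and the summed level of the list was 78.4 to 96.4 CPM in vehicle and 113 to 158 CPM in bilirubin cultures, with *Oscar* at 0. Macrophage markers summed to 24075 to 24377 CPM in vehicle and 28478 to 30496 CPM in bilirubin cultures, with 3 of 8 called higher (*Lyz2*, *Itgam* and *Adgre1*). Most of this sum was *Lyz2*, at 19145 CPM on average in vehicle and 24369 CPM in bilirubin cultures. *Cd68* and *Mertk* had log2 fold changes of -0.16 and -0.15, were lower in all 4 mice and were not called. The part of either list in the values of *Plin2* and *Rxra* was not tested. Neutrophil markers (7 of 8 under 1 CPM), dendritic cell markers (6 of 6) and lymphocyte markers (6 of 6) were at or near 0, and marrow stroma markers summed to 14.6 to 21.6 CPM in vehicle and 13.2 to 20.3 CPM in bilirubin cultures. Most of the stroma sum was *Kitl*, at 13.1 CPM on average in vehicle and 12.4 CPM in bilirubin cultures. *Col1a1*, *Col1a2* and *Pdgfrb* had log2 fold changes of -0.93, -1.06 and 0.18, and no stroma marker was called.

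The genes whose log2 CPM ran most like that of *Plin2* over the 8 libraries, among 9103 genes compared, were *D10Wsu102e* (Pearson's r = 0.989), *Irf2bpl* (0.986) and *Notch4* (0.985). For *Rxra* they were *Tgfbr2* (0.994), *Slc9a7* (0.988) and *Plpp6* (0.987). These are the highest of many correlations over libraries that share treatment and mouse, and are given as a description.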

How the data were processed

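Libraries from 4 mice, with a vehicle and a bilirubin culture of each, were grouped by their labels. Per the submitters' processing notes, the tools were bcl2fastq 2.20.0.422, Trim Galore 0.6.7, Cutadapt 3.4, STAR 2.7.9a, Salmon 1.10.1 and R 4.2.2, with the GRCm39 build. Positions and transcripts are from the GENCODE annotation of that build, and overlaps are of whole gene bounds, introns included. The study's methods name an Ensembl release for the counts, and the match of the releases was not tested. The authors deposited Salmon's estimated counts per gene, not normalized, and, for each library, estimated counts, TPM and effective lengths per transcript. Whether counting used strand is not given in the sources used here.

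After rounding, estimated counts were tested with edgeR 4.0.16 under R 4.3.3 (TMM scaling, filterByExpr with at least 10 counts and 15 in total, mouse and treatment as terms, quasi-likelihood test, Benjamini-Hochberg adjustment, threshold 0.05). Log2 CPM used a prior count of 2, and TPM was summed per gene. Alternatives were treatment alone, DESeq2 1.42.0, limma 3.58.1 as voom, DESeq2's size factors, library totals, no filter, a mean of 10 counts, omission of each mouse in turn, and a transcript length offset. The procedure was tested on simulated data. Mice were paired because the study's model has the mouse as a term. Deviations from group means correlated by 0.108, 0.134, 0.108 and -0.0053 within mice 1 to 4, against at most 0.0751 between mice. Cultures of a group come from separate mice.

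The genes, lists and tests were chosen with earlier results of these data known. Named were all 9 genes, the called pathway genes whose mean log2 CPM was 0 or more, the most abundant gene of each role, and the 3 genes most like *Plin2* and *Rxra* among genes averaging 3 or more on the log2 CPM scale. Other genes were named for their role after their values were seen. Results of some single genes in the lists are not reported here, though they count in the totals.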

Additional observations from a re-analysis of the deposited data

Results flagged for a closer look

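In 3 of 50 gene groups examined (the 9 genes and those named from the wider pathway, 4 libraries in each group), the highest or lowest library lay further from its nearest neighbour, relative to the range of the group, than Dixon's critical value of 0.829. Chance gives about 1 in 20 such groups. *Ppara* had 0.199 CPM in the bilirubin culture of mouse 4 and 0 in the other bilirubin cultures (gap over range 1), a difference of 8 counts. *Rxra* was at 162 CPM in the bilirubin culture of mouse 1 and at 131 to 136 CPM in the other 3 (0.857). *Acsl4* was at 111 CPM in the same culture and at 140 to 142 CPM in the others (0.915).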

How the results depend on the processing

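Of the 9 genes, 2 were called with the pairing by mouse and 0 with treatment alone (no replicate block). Without a filter on low counts 4 were called, with a mean of 10 counts 1 and with an offset for transcript length 0. With a mouse left out, 0 to 3 were called. DESeq2, limma-voom and library totals each called 3, and DESeq2's size factors 2. Over all tested genes the 1033 calls became 686 without the block, 579 with the length offset and 377 to 1910 with a mouse left out. They became 1692 without the filter, where 26021 genes were tested in place of 13722. With DESeq2, limma-voom and library totals they were 1074, 1065 and 1083. The 6 calls of the wider pathway became 10 without the filter and 2 to 9 with a mouse left out, 2 without mouse 3 and 2 without mouse 4. The cause of these moves was not tested. *Plin2* was called in 8 of 12 alternatives and *Rxra* in 6, with adjusted p from 9.48e-09 to 0.189 and from 0.000244 to 0.249. The 9.48e-09 of *Plin2* came from edgeR's quasi-likelihood test without the filter, at a log2 fold change of -0.28 against -0.27 with it. Genes with fold changes near 0 turned sign. *Acadl* turned to 0.051 with the length offset, *Crat* to -0.017, *Scp2* to -0.00074 and *Plin3* to -0.0068 with library totals, and *Pnpla2* to 0.00054 without the block. With a mouse left out they ran from -0.021 to 0.00087 (*Acadl*), -0.011 to 0.037 (*Crat*), -0.0037 to 0.069 (*Scp2*), -0.010 to 0.071 (*Plin3*) and -0.033 to 0.0225 (*Pnpla2*). None of the other 6 tested genes of the 9 turned sign in the 12 alternatives, and *Ppara* and *Pdk4* were fitted without the filter only. Changes of *Ppara* and *Pdk4* were not detectable at their few counts.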
